A study of Homo sapiens with 24 samples.

Results

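The broad non-promoter H3K27ac domains of 10A and DCIS cells were those regions of the shANCO1 to shCTRL comparisons that were at least 3000 bp wide and that the authors' annotation placed on no promoter. In 10A, 2149 of 50284 regions (4.27%) met the rule, and in DCIS 1696 of 44790 (3.79%) did, which gave 3845 domains among 95074 regions. They had a median width of 3600 bp in both lines and covered 8.03 Mb in 10A and 6.36 Mb in DCIS. "Broad" describes width alone, since the widest region of either table was 5100 bp and longer stretches of acetylated chromatin therefore lay in several adjoining pieces.

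H3K27ac is acetylation of lysine 27 on histone H3, a mark written by the CBP and p300 acetyltransferases and removed by histone deacetylases. Away from promoters it marks active enhancers, and wide stretches of it are typical of clustered enhancers around genes on which a cell type depends. ANCO1, the product of ANKRD11, is a large nuclear co-regulator that binds histone deacetylases and the p160 family of acetyltransferase-recruiting coactivators.

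The study profiled 24 libraries in 8 groups of 3, made of 4 kinds of cells, each with H3K27Ac immunoprecipitated and input chromatin. 10A cells are the immortalized, non-tumorigenic human mammary epithelial line MCF10A, and DCIS cells (MCFDCIS) are a malignant relative of it that forms lesions like ductal carcinoma in situ. Both were infected with lentivirus carrying a hairpin against ANCO1 (shANCO1) or against GFP (shCTRL), selected with puromycin and grown in the same serum medium with EGF, hydrocortisone, insulin and cholera toxin. A single ANCO1 hairpin line was used for ChIP-seq. The methods give the ChIP-seq as done in triplicate but do not state that the 3 libraries of a group came from separate cultures.

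The deposited tables held 1 line per region, so no value per library, read depth or spread between replicates could be given, and the depth behind each value was unknown. The log2 fold change of a region was the authors' value for 1 representative window, shANCO1 over shCTRL, and "up" or "down" means a csaw FDR under 0.05 with that direction in the authors' deposited table. The knockdown itself could not be checked, since the ChIP tables hold no RNA. Regions enriched over input lay on 4 to 6 of 6 epithelial marker genes and on 4 or 5 of 6 mammary basal ones in the 4 kinds of cells, KRT5, TP63, LAMB3 and ITGB4 among them each time and KRT14 never. They lay on 1 of 6 blood cell genes (SPI1), 1 or 2 of 6 endothelial genes and 0 to 3 of 6 fibroblast genes.

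AP-1 proteins, dimers of the FOS, JUN, BACH and related families, bind the 7-base element TGANTCA at many enhancers of basal mammary cells. The pattern TGANTCA occurred at least once in 90.1% of the 10A domains and 84.1% of the DCIS domains. The shares were 70.8% and 70.2% of promoter regions of at least 3000 bp, so that a match alone sets no domain apart. The 29-base stretches below, on the plus strand of GRCh38, are shown because they lie in the domains that gained most, in domains shared by both lines, or in those that lost most. Each carries the match nearest the midpoint of its domain, in capitals. The KIRREL3 and RXFP1 matches are TGAATCA, which fits the pattern but not the element TGA(C/G)TCA.
IL1A flank, both lines, chr2:112793840-112793868: ccctttcctttTGAGTCAttttctttagt
near ACTL7B, both lines, chr9:108836896-108836924: gtgactggaggTGACTCAcacctgctctt
far from TGFBR2, both lines, chr3:30347753-30347781: tgaggaccaatTGACTCAttctagcacac
DEDD2 and POU2F2, both lines, chr19:42207894-42207922: cgttgtacgcaTGAGTCActctgccagaa
CAMK2N1 and MUL1, both lines, chr1:20495164-20495192: cattcatgggtTGACTCAttcattccatg
RORA intron, highest in 10A, chr15:60973033-60973061: aagtcatccgaTGACTCAtgggaaatccg
near ARAP3, up in DCIS, chr5:141714756-141714784: agaggaatgcaTGACTCAgggcaagccac
MARCHF10-DT intron, up in DCIS, chr17:62823481-62823509: taatagaaataTGAGTCAtataagtaatt
KIRREL3 intron, lowest in DCIS, chr11:126544375-126544403: ttgtaacccctTGAATCAaactttatgag
near ACSM4, down in DCIS, chr12:7264998-7265026: agcaccatcttTGACTCActggtctgtct
RXFP1 intron, down in both lines, chr4:158372064-158372092: attcagcccctTGAATCAagattggctat

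The first question was how H3K27ac changed at these domains within each line when ANCO1 was reduced. In 10A nearly every called domain gained the mark: 1598 of 2149 were up (74.4%) and 8 were down (0.372%), where 43.6% of all 10A regions were up and 0.225% were down. The median log2 fold change of the 10A domains was 0.93, or 0.16 above the median of 0.76 over all 10A regions, and the middle 80% of domains lay between 0.55 and 1.36. In DCIS the domains went both ways, with 620 of 1696 up (36.6%) and 227 down (13.4%), where 23.6% of all DCIS regions were up and 4.86% were down. The DCIS median was 0.90, 0.38 above the median of 0.52 over all regions, but the middle 80% reached from -1.56 to 1.95. Since the domains were taken from these same tables, the counts are a description and carry no test.

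Other kinds of region gave a scale for these counts. Narrower non-promoter regions were up in 34.0% of cases in 10A and 30.9% in DCIS, and down in 0.304% and 5.95%. Promoter regions of at least 3000 bp were up in 83.1% in 10A, more often than the non-promoter domains, and in 25% in DCIS, with 6.01% down there. Called domains of 10A were 99.5% up and those of DCIS 73.2% up. With the FDR kept and each value read against the median of all regions of its table, these shares were 86.6% and 73.2%. Part of the one-sidedness in 10A thus depended on where 0 was set. The DCIS share could not change in this way, since the lowest value called up there was 0.85, above the median of 0.52 over all regions.

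In DCIS the domains fell into a gaining and a losing population with few in between. Only 6.90% of DCIS domains had a log2 fold change between -0.5 and 0.5, while 66.7% exceeded 1 in either direction and 21.6% lay at -1 or below. Among DCIS promoter regions of at least 3000 bp, which held the same median number of tested windows (34), 19.2% lay between -0.5 and 0.5. Narrower non-promoter regions held a median of 4 windows from which the representative could be drawn and had 23.2% in that range. In 10A, 6.05% of domains lay in that range and 97.1% of all domains were above 0. The part that the choice of a representative window had in the gap around 0 was not tested.

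**Figure D1:**
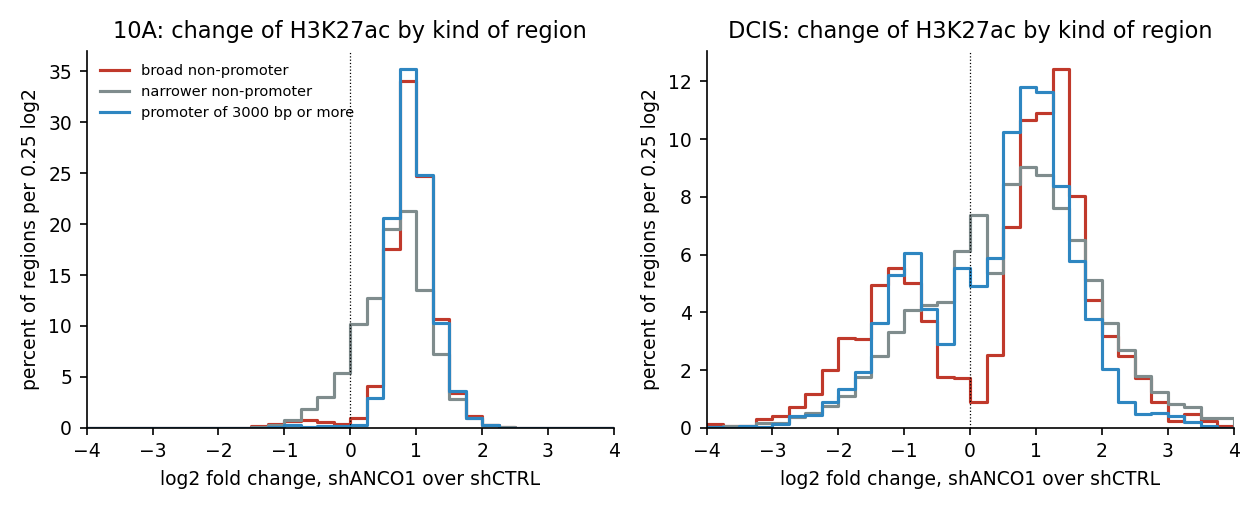
Distribution of the authors' log2 fold change (shANCO1 over shCTRL, x axis) in 10A and DCIS, as the percent of regions in each step of 0.25 (y axis), for broad non-promoter domains, narrower non-promoter regions and promoter regions of at least 3000 bp. The 10A domains form 1 peak at a median of 0.93, whereas the DCIS domains form a positive and a negative peak with 6.90% of domains between -0.5 and 0.5.

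Width and calls moved together in 10A. The share of non-promoter regions that was up rose from 23.3% at 200 to 900 bp through 45.7% at 1000 to 1900 bp and 62.5% at 2000 to 2900 bp to 71.4% at 3000 to 3900 bp and 80.1% at 4000 to 5100 bp. The median log2 fold change rose over the same steps from 0.57 to 0.85 and then stayed between 0.92 and 0.93. In DCIS the share up ran from 28.1% through 36.0%, 37.7% and 38.4% to 33.2%, and it was the share down that was larger in wide regions, at 4.91%, 6.82%, 10.5%, 13.7% and 12.9%. Median windows per region ran over these steps from 3 to 41 in both lines, and the part of window number in the calls was not tested. Just inside the limit, at 3000 bp, 69.2% of 182 regions in 10A were up, and just outside, at 2900 bp, 64.2% of 215. In DCIS the 160 regions of 3000 bp were 35.0% up and 15.0% down, and the 154 regions of 2900 bp 39.0% up and 6.49% down.

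**Figure D2:**
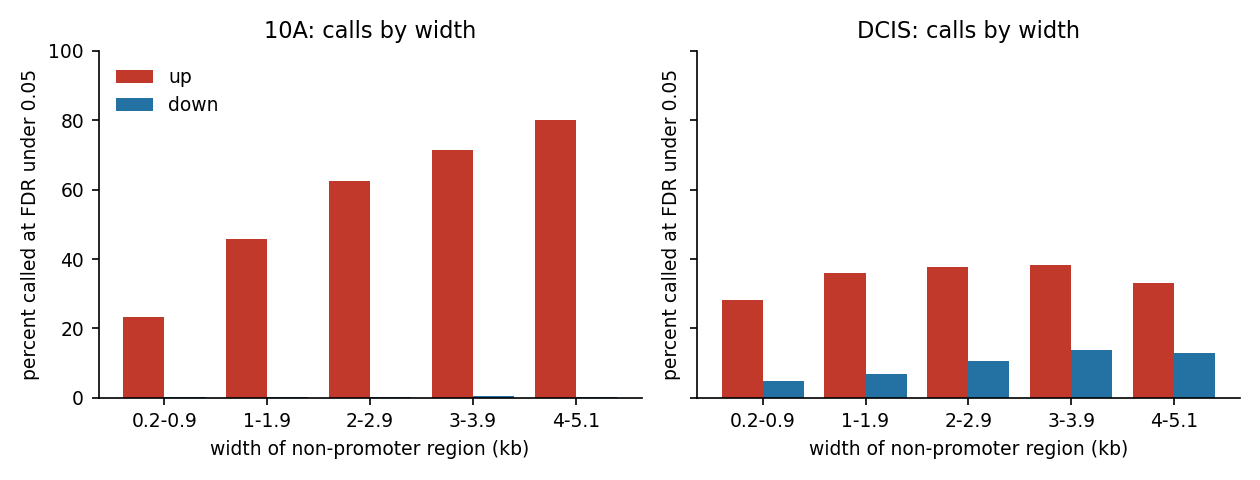
Percent of non-promoter regions called up or down at FDR under 0.05 (y axis) by width of the region in kb (x axis), in 10A and DCIS. Up calls in 10A rise from 23.3% to 80.1% with width while down calls stay under 0.5%, and in DCIS down calls rise from 4.91% to 13.7% and 12.9% in the widest steps.

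The tables against input show whether a domain carried the mark in each kind of cell. In 10A, 2099 domains (97.7%) overlapped a region enriched over input in shANCO1 and 1743 (81.1%) in shCTRL, against 45.2% and 23.5% of all 10A regions. Enriched regions covered a median of 55.3% of a domain's bases in 10A shANCO1 and 22.2% in 10A shCTRL. In DCIS, 1433 domains (84.5%) were enriched in shANCO1 and 1323 (78.0%) in shCTRL, against 30.3% and 27% of all DCIS regions, with median covered shares of 30.0% and 27%. Overlap needed only 1 bp, and all regions had a median width of 1000 bp (10A) or 900 bp (DCIS). Promoter regions of at least 3000 bp in 10A overlapped an enriched region in 98.0% of cases for shANCO1 and 76.5% for shCTRL. DCIS promoter regions of that width did so in 89.7% and 85.3%. Of their bases, a median of 57.1% (shANCO1) and 18.2% (shCTRL) was covered in 10A. For DCIS these medians came to 34.3% and 33.3%. Such overlap was thus not particular to non-promoter domains. The immunoprecipitated libraries are those of the direct comparison, so these shares describe the same signal in another way.

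Split by call, the marked part of the domains shifted in opposite directions in DCIS. Domains up in DCIS were covered to a median of 9.34% in shCTRL and 42.5% in shANCO1, and 370 of 620 (59.7%) had any enriched base in shCTRL. Domains down in DCIS were covered to 54.5% in shCTRL and 9.76% in shANCO1, and 221 of 227 (97.4%) had been marked in shCTRL. In 10A the 1598 domains that were up went from 20.6% to 58.8% covered, and 1279 of them (80.0%) were already marked in part in shCTRL.

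**Figure D3:**
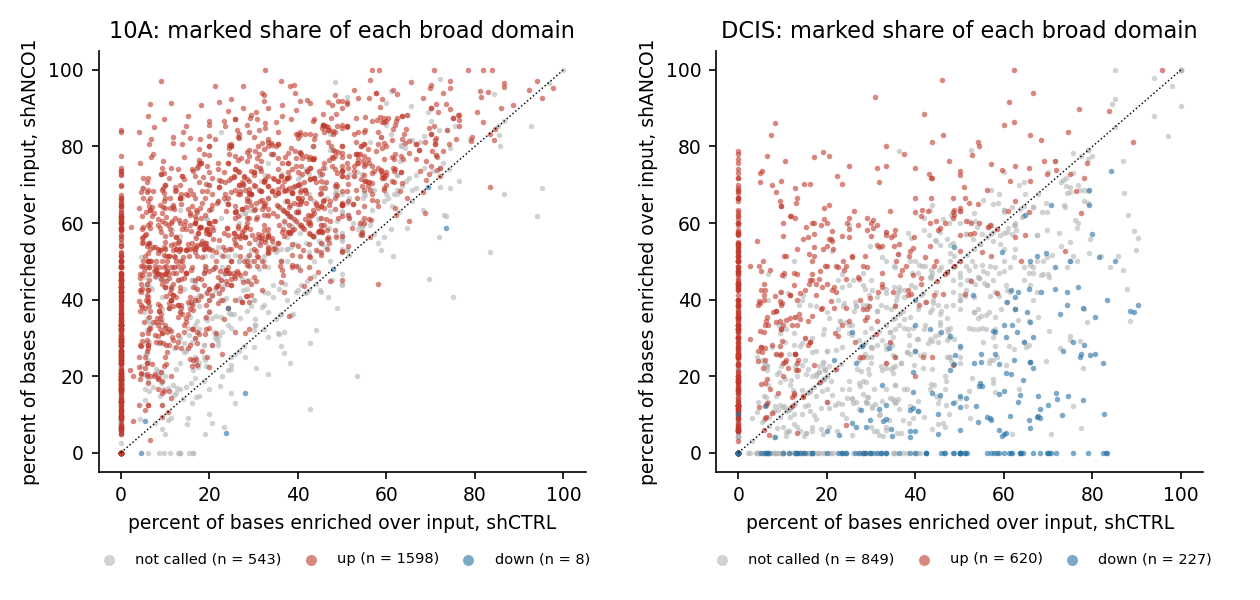
Percent of each broad domain's bases that lay in regions enriched over input in shCTRL (x axis) and in shANCO1 (y axis), 1 point per domain, coloured by its call in 10A and DCIS. Points above the dotted line had more marked bases in shANCO1, as most 10A domains did, while the 227 DCIS domains called down lie mostly below it, with medians of 54.5% in shCTRL and 9.76% in shANCO1.

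The libraries of the other line had no part in choosing a line's domains and so gave a more independent view. Of the 10A domains, 1851 (86.1%) overlapped a region tested in DCIS. The share was 58.2% for all 10A regions and 96.3% for promoter regions of at least 3000 bp. Of the 1851 domains, 1136 (61.4%) were up in DCIS and 44 (2.38%) down, where the background was 29.2% and 2.52%. Their median log2 fold change in DCIS was 1.44, against 0.72 for all matched 10A regions. Promoter regions of at least 3000 bp in 10A were up in DCIS in 29.8% of cases and narrower non-promoter regions in 40.7%. In the reverse comparison, 1422 DCIS domains (83.8%) had a 10A region. The share was 69.5% for all DCIS regions and 93.9% for promoter regions of at least 3000 bp. Of the 1422 domains, 819 (57.6%) were up in 10A, near the background of 54.3%, and 8 (0.563%) were down, against 0.206%. Narrower non-promoter regions of DCIS were up in 10A in 44.5% of cases and promoter regions of at least 3000 bp in 73.7%. All these shares are over regions of the same few libraries and were not tested.

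The direction of a DCIS domain went with whether 10A cells had a counterpart. Of 274 DCIS domains with no tested 10A region, 103 (37.6%) were down and 25 (9.12%) up, with a median log2 fold change of -0.97. Of 722 with a 10A region that was no broad domain, 92 (12.7%) were down and 230 (31.9%) up, with a median of 0.80. Of 700 that overlapped a broad domain in 10A, 32 (4.57%) were down and 365 (52.1%) up, with a median of 1.22. The 10A domains showed no such order, with 74.8%, 73.2% and 75.9% up in the corresponding groups of 298, 1125 and 726. Other DCIS regions were ordered likewise. Of all DCIS regions, 10.6% of 13670 without a 10A region and 2.35% of 31120 with one were down, and of the promoter regions of at least 3000 bp, 30.9% of 165 and 4.39% of 2530.

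**Figure D4:**
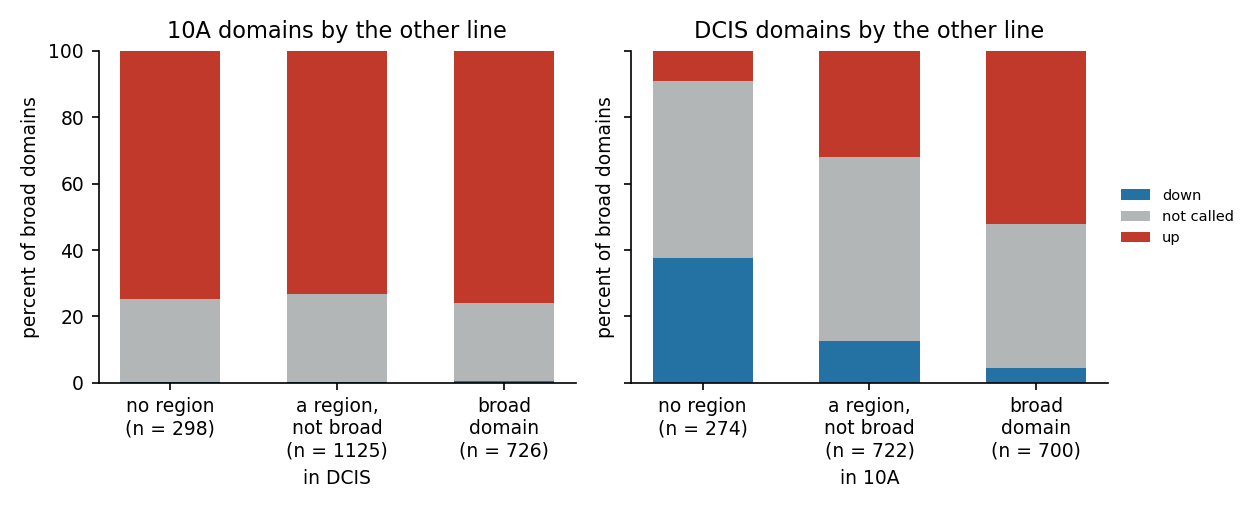
Percent of broad domains called down, not called and up (stacked, y axis) in 10A and DCIS, split by what the other line had at the same place (x axis). In DCIS the share down falls from 37.6% with no 10A region to 4.57% with a broad 10A domain, while the 3 groups of 10A lie between 73.2% and 75.9% up.

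Control 10A cells carried the mark at most of the domains that DCIS cells gained. A region enriched over input in 10A shCTRL lay under 431 of the 620 DCIS domains that were up (69.5%), 370 of the 849 that were not called (43.6%) and 40 of the 227 that were down (17.6%), where 23.1% of all DCIS regions had one. The same order was present over all DCIS regions, at 33.4% of those up, 20.7% of those not called and 7.82% of those down. Promoter regions of at least 3000 bp in DCIS had one in 68.1%, 64.4% and 23.5% in that order. The order was thus not a feature of broad domains alone. Conversely, DCIS shCTRL had an enriched region under 34.2% of the 10A domains that were up and 36.5% of those not called, against 20.8% of all 10A regions. Among 10A promoter regions of at least 3000 bp, 67.8% of those up and 65.4% of those not called had one. A tested 10A region existed for 124 of the 227 DCIS domains that were down (54.6%) and for 595 of 620 (96.0%) of those up. Over all DCIS regions these shares were 33.7% and 83.6%. Where a 10A region existed, it was up in 43 cases under DCIS domains that were down (34.7%) and in 409 cases under those that were up (68.7%). Over all DCIS regions it was up in 40.2% and 58.3%.

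Domains broad in both lines were more often up in both than opposite in direction. With at least 50% of each shared, 640 pairs joined 638 of the 10A domains (29.7%) to 637 of the DCIS domains (37.6%), and 279 pairs were up in both lines, 194 were up in 10A and not called in DCIS, 13 rose in 10A while falling in DCIS, and 1 was down in both. The median log2 fold change of the pairs was 0.88 in 10A and 1.27 in DCIS, with SDs over pairs of 0.41 and 1.12. The sizes of the changes were only loosely related, with a Pearson r of 0.15 and a Spearman rho of 0.12 over the 640 pairs. Pairs from 1 locus and from the same libraries are not independent points.

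**Figure D5:**
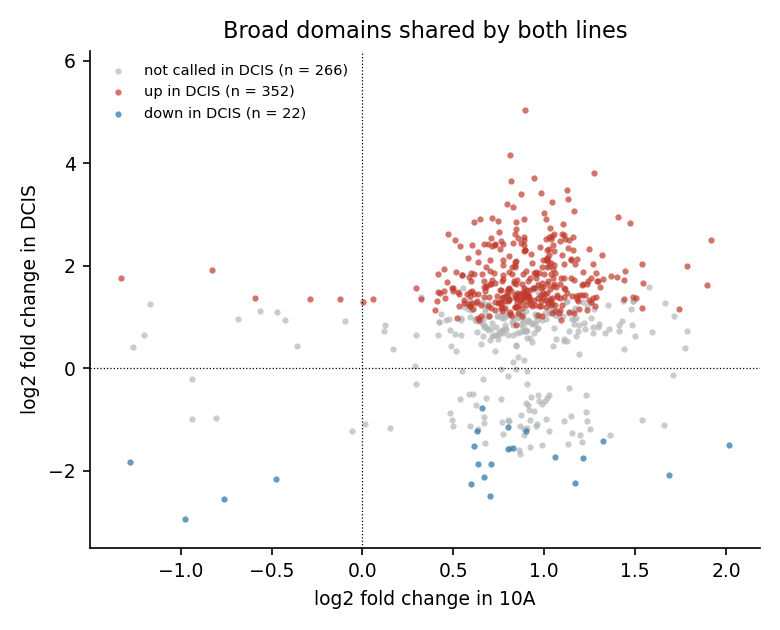
Log2 fold change in 10A (x axis) and in DCIS (y axis) of 640 pairs of broad domains that share at least 50% of each, coloured by the DCIS call. Most pairs lie in the upper right, 279 of them up in both lines, and the DCIS values spread over a wider range than those of 10A (SD 1.12 against 0.41).

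The 8 pairs with the lowest FDR in both lines were up in each, and in all 8 the DCIS value was the larger and DCIS shCTRL had 0% of the bases marked. The first, chr3:30346101-30351000 in 10A, lies 255601 bp from the TSS of TGFBR2, a TGF-beta receptor, and had a log2 fold change of 1.04 in 10A (FDR 1.85e-07) and 2.59 in DCIS (FDR 1.83e-07). The domain of CAMK2N1 and MUL1 (chr1:20493501-20497200 in 10A), an inhibitor of calmodulin kinase II and a mitochondrial ubiquitin ligase, had values of 1.11 (FDR 3.27e-06) and 2.53 (FDR 1.85e-11). In 10A shCTRL 55.1% and 13.5% of their bases were marked. The domain of DEDD2 and POU2F2 (chr19:42206101-42209700) gave 1.11 (FDR 1.74e-06) and 2.60 (FDR 3.53e-09), with 0% of its bases marked in 10A shCTRL. In HIPK2, a nuclear kinase of stress signalling, the 10A domain chr7:139679001-139682100 rose by 1.13 (FDR 3.71e-06) and its DCIS partner by 3.49 (FDR 8.85e-08). Further pairs lay in RAD51B (0.93 and 2.24), in XKR4 (1.92 and 2.50) and 16586 bp from ACTL7B (1.27 and 3.81).

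IL1A, which encodes the cytokine interleukin 1 alpha, was the only one of 9 genes that the study singles out as gaining both RNA and H3K27ac to have a broad non-promoter domain. The study drew that list from these same samples, and it is thus no independent evidence of direction. In 10A the domain chr2:112792401-112796300, 7908 bp from the TSS, had a log2 fold change of 1.04 (FDR 2.83e-04) with 23 of 38 windows up. It was already marked over 59.0% of its bases in 10A shCTRL and over 71.8% in shANCO1. In DCIS the domain chr2:112793101-112796300 had a value of 3.25 (FDR 3.15e-09) with 30 of 30 windows up, and its marked share went from 0% in shCTRL to 68.8% in shANCO1. The site printed above for IL1A lies in both. A further domain in the same cytokine gene cluster, chr2:112875701-112879700, 31465 bp from the TSS of IL37, had the lowest FDR of all 10A domains (1.99e-09) with a value of 1.59, and 3.32 in DCIS (FDR 2.93e-10). It was named for its FDR after the values were seen.

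The 5 domains with the highest values in 10A were in introns or between genes except 1, which overlapped an exon. The highest was an intronic domain of RORA, an orphan nuclear receptor, at chr15:60970601-60975000, with a log2 fold change of 2.49 (FDR 3.02e-08) and 42 of 42 windows up. Its marked share was 6.82% in 10A shCTRL and 81.8% in 10A shANCO1, and DCIS had neither mark nor tested region there. An intergenic domain 21864 bp from EYA3 followed at 2.25 (FDR 3.49e-05), one 34498 bp from TSC22D2 at 2.19 (FDR 4.39e-05), the exonic one, in GSAP, at 2.13 (FDR 7.56e-09) and one in ARAP1, a GTPase-activating protein of membrane traffic, at 2.06 (FDR 1.92e-04). Of these, the TSC22D2 and GSAP loci had a DCIS region and were up there too, at 2.06 and 1.98.

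In DCIS the highest values were larger. An intronic domain of ASAP1, an Arf GTPase-activating protein of focal adhesions, had a log2 fold change of 5.05 (FDR 3.38e-13) with 39 of 39 windows up, and 0.89 in 10A (FDR 0.00148). Next came a domain 30771 bp from ARAP3 at 4.16 (FDR 2.88e-17), the one near ACTL7B at 3.81 (FDR 2.34e-13), one in FRMD6, a regulator of the Hippo pathway, at 3.71 (FDR 5.94e-08), and one in MARCHF10-DT at 3.67 (FDR 1.77e-10). Each of the 5 had 0% of its bases marked in DCIS shCTRL and 32.4% to 80.0% in 10A shCTRL. In DCIS shANCO1 the FRMD6 domain also had 0% marked and the others 25% to 35.3%. Of the 5, 4 had an up call in 10A as well, the FRMD6 domain being at 0.94 there (FDR 0.122).

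Losses in DCIS were led by KIRREL3, a gene for an immunoglobulin-type cell adhesion protein. All 5 of its domains were down, with values from -4.19 to -1.75. The lowest, chr11:126542901-126546100, had 29 of 29 windows down (FDR 1.22e-07), and the next in the gene, chr11:126577301-126581500, stood at -3.76 with 39 of 39 windows down (FDR 3.79e-09). Their marked shares fell from 71.9% and 33.3% in DCIS shCTRL to 0% in DCIS shANCO1, and neither had a marked base in 10A. The same held at a domain 37772 bp from ACSM4 (-3.77, FDR 2.03e-05), one 72595 bp from TFAP2C, the gene of an AP-2 transcription factor of mammary epithelium (-3.35, FDR 7.80e-14), one 114191 bp from CDH5 (-2.99, FDR 6.97e-11), one 109603 bp from TBX18 (-3.73, FDR 4.62e-09) and one 124986 bp from DCAF4L2 (-2.97, FDR 1.06e-08). Every one of these 7 domains was marked in DCIS shCTRL, over 28.1% to 82.4% of its bases, and unmarked in the 3 other kinds of cells.

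The 8 domains down in 10A were less clear. The RXFP1 intron, a relaxin receptor gene, had a value of -1.28 (FDR 0.00927) with 4 of 44 windows down, and was down in DCIS at -1.82 (FDR 0.0133). The lowest value, -1.34 in PCCA (FDR 0.0243), rested on 1 of 35 windows. A domain on the SPATC1 locus stood at -1.33 (FDR 0.0337) with 2 windows up and 2 down, and was up in DCIS at 1.77 (FDR 5.20e-04). By FDR the first were domains 35370 bp from FAT2 (-1.03, FDR 0.00368) and 42948 bp from GCLC (-1.20, FDR 0.00446), with 9 of 37 and 3 of 35 windows down, and one 27124 bp from IRX2 (-0.78, FDR 0.0129). In the GCLC and RXFP1 domains the marked share was the same with either hairpin, at 69.4% and 48.0%.

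Adjoining domains, with a gap of at most 100 bp, were joined to show the longer stretches from which they had been cut. This gave 1839 stretches in 10A, 269 of them with several domains, and 1427 in DCIS, 222 of them with several. Domains of 1 stretch had values of the same sign in 253 of the 269 in 10A and in 157 of the 222 in DCIS. Up and down calls stood side by side in 0 stretches of 10A and 5 of DCIS.

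The longest stretch was the same locus in both lines, with values above 0 in 10A and below 0 in DCIS. On chromosome 10, 6 adjoining 10A domains (chr10:72241001-72266700) at ANAPC16, a subunit of the anaphase-promoting complex, and DDIT4, a stress-induced inhibitor of mTORC1, had values of 0.63, 0.59, 0.67, 0.66, 1.01 and 0.60, and all 6 were up. Across the same place in DCIS, 7 adjoining domains (chr10:72236001-72268700) had values of -0.85, -1.22, -0.50, -1.06, -0.77, -0.58 and -2.26, of which 3 were down. In 10A the marked share of the stretch went from 30.9% in shCTRL to 65.6% in shANCO1, and in DCIS from 69.7% to 57.1%. All 10A values of the stretch except 1.01 lay below the median of 0.76 over all 10A regions, and normalization sets the 0 of each line. A difference between the lines was not tested, since the tables hold no value per library.

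The next stretches in 10A were both on chromosome 20, with 5 domains each and every domain up. One lay in LINC00656, 54077 bp from CD93, with values from 0.83 to 1.24, and the other 67121 bp from PTPN1, a tyrosine phosphatase gene, with values from 0.60 to 1.33. In DCIS, 5 domains of TFCP2L1, a grainyhead-family transcription factor gene, ran from -1.87 to 1.14 with 3 down and 0 up, and 5 at DNAJB12 from -1.99 to 1.40 with 1 up and 1 down. A stretch of 4 domains of PECAM1 in DCIS, singled out after the values were seen, was down throughout at -1.81, -2.96, -2.55 and -1.98, its marked share being 43.2% in shCTRL and 13.6% in shANCO1. PECAM1 encodes an adhesion protein best known from endothelium and was also among the endothelial marker genes found enriched over input in all 4 kinds of cells.

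Several genes held many domains. The genes named here were chosen for their counts after the values were seen, and domains of 1 gene are neighbours. RAD51B, a homologous recombination gene, held 14 domains in 10A, 13 up, with values from 0.66 to 1.66. In DCIS it held 18, 6 up and 2 down, with values from -1.74 to 2.83. APBB2 had 12 in 10A, 9 of them up, and 5 in DCIS, 3 of them up. ACTN4, which encodes an actin crosslinker, had 8 in 10A with 7 up and 9 in DCIS with 5 up and 0 down. SYN3 had 6 domains in DCIS with 3 down and values from -2.20 to -1.24. ASAP2, a relative of ASAP1, had 4 in DCIS with 4 up, from 1.85 to 2.40. In all, 861 genes in 10A and 680 in DCIS were overlapped by a domain, 272 and 210 by several.

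Gene lists, chosen with earlier results of these data known, were read against the 74.4% of 10A domains and 36.6% of DCIS domains that were up, and against their medians of 0.93 and 0.90. A gene was counted at a domain when the authors' annotation placed it over the domain or within 10 kb. YAP, TAZ and TEAD regulators and targets, the output of the Hippo pathway, held 23 domains in 10A at 12 of 29 genes, 19 of them up, with a median of 0.98. In DCIS they held 15, of which 7 were up and 0 down, with a median of 1.29. Among them in 10A, NT5E, a cell surface nucleotidase, stood at 1.55, DOCK5 at 1.16 and MYOF at 0.92. In DCIS ASAP1 held 2 domains, the one at 5.05 given above and one at -1.50 that was not called. MYOF stood at 1.58 (FDR 9.45e-05), the highest of its 3 domains, and AMOTL2, a YAP-binding angiomotin, at 1.64 (FDR 3.29e-04).

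EGF ligand genes, ERBB and MET receptor genes and feedback genes of RAS-MAPK signalling held 13 domains in 10A. All 13 were up, with a median of 1.11. EGFR itself held 6, with values of 0.82, 1.11, 1.19, 1.29, 1.31 and 1.43, and the one with the lowest FDR (1.70e-04) went from 0% to 58.8% of its bases marked. PHLDA1 and ERRFI1, a feedback inhibitor of EGFR, stood at 1.21 and 0.99. In DCIS 4 of 6 domains of the list were up, the 6 had a median of 1.5, and no domain lay at EGFR. Those up included NRG1, a ligand of the ERBB receptors, at 2.54 and TGFA, a ligand of EGFR, at 1.53 (FDR 8.74e-06). The domain at DUSP4, a feedback gene, was not called and stood at -1.02 (FDR 0.234).

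Laminin and integrin genes, which anchor basal cells to their matrix, held 17 domains in 10A with 14 up and a median of 0.89, and 10 in DCIS with 4 up and 0 down and a median of 0.87. The domain beside LAMB3, a laminin chain of the basement membrane, stood at 1.39 with 35 of 37 windows up, and its DCIS region, which was not a broad domain, at 3.18. ITGB6 held 6 domains in 10A, all up, from 0.63 to 1.11, and 4 in DCIS with 3 up, from 0.99 to 1.60. Keratin and desmosome genes held 2 domains in 10A, of which the one beside KRT6B was up at 1.49 and the one between DSG2 and DSG3 stood at 0.74 (FDR 0.0847), and 1 in DCIS, at PKP1, which was up at 1.89.

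AP-1 family genes, with BACH1 and BACH2 counted among them, held 9 domains in 10A, 8 of them up, with a median of 1.16, and 1 in DCIS. Of the 9 in 10A, BACH1 held 4, BACH2 held 3, and FOSL2 and BATF held 1 each. FOSL2 was the one with a domain in both, at 1.16 in 10A (FDR 6.84e-05) and 2.31 in DCIS. BACH2, a repressor that shares the AP-1 element, stood at 1.71 and BACH1 at 1.25 in 10A. NF-kB and interleukin 1 genes held 4 domains in 10A, all up, with a median of 1.09: those beside BIRC3, an inhibitor of apoptosis, at 1.14, CCL20, a chemokine, at 1.31 and IL1A, and one in OSMR. Of the 3 in DCIS, IL1A and LIF (1.5, FDR 0.0265) were up and BIRC3 stood at 1.09 (FDR 0.0901).

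Basal and squamous transcription factors were mixed in both lines. In 10A 3 of 6 domains were up with a median of 0.76, namely those in RUNX1, of which the first stood at 1.51, and EHF at 1.17, while GRHL2 stood at -0.94 (FDR 0.219). In DCIS 3 of 8 were up and 1 was down with a median of 0.35. The domain in TP63, the master factor of basal epithelium, stood at 1.35 (FDR 0.00110), whereas a domain in GRHL3, a factor of the epidermal barrier, was down at -1.65 (FDR 0.0124). In 10A the TP63 region stood at -0.12 (FDR 0.865).

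TGF-beta and EMT genes held 7 domains in 10A, 6 of them up with a median of 0.95, and 6 in DCIS with 4 up, 1 down and a median of 1.24. SMAD3, which carries the TGF-beta signal, had 2 domains up in each line, at 0.91 and 1.27 in 10A and 1.37 and 1.40 in DCIS. TGFBI had 2 domains up in 10A, at 0.95 and 1.11, and 1 up in DCIS, at 1.39, which overlapped the one at 1.11. At TGFBR2 the lines parted: a domain in its flank was up in 10A at 0.70 (FDR 0.00314) and its DCIS partner down at -1.87 (FDR 0.00577). The remaining lists had few domains. CDK6 held 4 in 10A with 2 up and 5 in DCIS with 1 up. ESR1 held 2 in 10A with 1 up, KRT19 2 in DCIS with 0 up, and TFPI 2 in DCIS with 0 called.

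By position, introns held 48.8% of the 10A domains and 47.1% of the DCIS domains, intergenic sites with no gene within 10 kb 30.5% and 31.4%, exons 11.4% and 11.2%, and intergenic flanks of genes 9.31% and 10.3%. Exons were met by 5.99% and 5.47% of the narrower non-promoter regions. In 10A between 70.2% and 76.5% of each class was up. In DCIS between 35.6% and 38.3% of each was up, while down calls were 18.0% among isolated intergenic domains and 8.57% to 14.2% in the other classes. The median distance from a domain to a protein-coding TSS of GENCODE was 49696 bp in 10A and 45236 bp in DCIS, and only 5 and 3 domains lay within 1 kb of one. DCIS domains that were down lay farther out, at a median of 79802 bp against 39789 bp for those up.

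The median GC content of the domains was 42.4% in 10A and 45.0% in DCIS, against 42.6% and 45.8% in narrower non-promoter regions and 50.3% and 51.5% in promoter regions of at least 3000 bp. The AP-1 pattern TGANTCA, on either strand, lay in the central 500 bp of 30.9% of the 10A domains and 25.8% of the DCIS domains. The shares were 26.1% and 21.5% of all regions of the tables in a window of that length. Narrower non-promoter regions had it more often, in 33.1% and 28.6%, and promoter regions of at least 3000 bp less often, in 16.4% and 15.5%. In DCIS it was found at 29.4% of the domains that were up, 25.2% of those not called and 18.1% of those down, or 0.63, 0.48 and 0.37 matches per kb of whole domain. Over all DCIS regions the shares were 34.0%, 17.8% and 15.6% in that order. In 10A the shares were 31.7% for domains up and 28.7% for those not called.

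In percentage points, the other elements differed less between domains up and down in DCIS. The TEAD element GGAATG lay in the central 500 bp of 30.8% and 23.8% (27.1% of all DCIS regions), NF-kB GGANTTTCC in 2.90% and 1.76% (2.50%), STAT TTCNNNGAA in 14.7% and 16.3% (14.4%), RUNX TGTGGT in 35.8% and 33.9% (28.0%), GRHL AACNGGTT in 4.03% and 4.85% (3.60%) and C/EBP TTGCNNAA in 26.0% and 28.2% (21.1%). In 10A the shares over all domains were 30.3%, 2.61%, 18.2%, 33.5%, 4.56% and 26.8% in the same order, against 27.9%, 2.57%, 15.8%, 27.9%, 3.48% and 23% of all 10A regions. A match is a run of letters and was not taken as a bound site.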

How the data were processed

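ChIP-seq of H3K27ac and input was measured in 24 libraries. The methods name BWA and Rsubread for alignment (GRCh38), samtools for removal of duplicate reads, csaw for the test of binding and ChIPpeakAnno for the gene annotation. The deposited p-values and FDR, the deposited log2 fold changes of a representative window and the deposited numbers of windows are per region, with the libraries of a group pooled. Normalization, window filter, merging and prior count were not given in the sources used here, and normalization sets the 0 of every fold change. The authors' FDR under 0.05 and direction made the calls, and no test across regions was added. Overlap was at least 1 bp, a region of the other line being the one sharing most bases, and covered shares count bases in regions enriched over input. TSS were protein-coding, GENCODE release 44. Python 3.11.15, pandas 2.3.3 and pyfaidx 0.9.0.4 were used, and the code was tested on simulated regions. Coordinates are 1-based on GRCh38.

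Domains and lists were chosen with earlier results of these data known. Named were, per line, the 3 longest stretches, the 5 highest and 3 lowest called values, up to 5 down domains by FDR and up to 3 genes per list, the 8 shared pairs with the lowest FDR, and domains at genes the study singles out. Alternatives changed the FDR limit, fold change limit, centring, width, overlap, motif window, joining of regions and promoter definition. Some genes of these lists and pairs are not reported here.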

Additional observations from a re-analysis of the deposited data

How the results depend on the processing

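No paired analysis was possible because the deposited tables hold no value per library, and for the same reason no replicate could be left out. Of 86 alternatives to the 18 main results, 74 left the value within 1.5 times. The 12 other results, the shares of domains with a motif other than AP-1, moved by more in 24 of 24 alternatives. These alternatives changed the length of the motif window. Most results are shares, which cannot change sign, and the median log2 fold changes stayed positive. Centring could not move the DCIS shares, for the reason given above. The share of 10A domains up fell from 74.4% to 38.9% when a log2 fold change of 1 or more was also required. The share of 10A domains down, 0.372%, was 0.140% at FDR under 0.01 and 10.1% with values centred on the median of all regions, which counts significant gains below that median as losses. When at least 50% of a domain had to be covered by enriched regions, 58.7% of 10A domains were marked in shANCO1 and 16.9% in shCTRL, and 24.0% and 25.5% of DCIS domains. With a width of at least 4000 bp, 27.4% of DCIS domains overlapped a broad 10A domain (main value 41.3%). AP-1 matches were found at 12.8% and 11% of 10A and DCIS domains in 200 bp and at 52.8% and 44.8% in 1000 bp, the window's length setting the number. Alternatives added after the data were seen left 26.6% to 42.3% of DCIS domains without a 10A region down, and 40.9% to 57.1% of those overlapping a broad 10A domain up. Depth could not be judged, so a domain that was not called is not shown to be unchanged.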

Other observations

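Broad domains were unevenly spread over chromosomes, and differently in the 2 lines. On chromosome 20, 166 of 2065 10A regions (8.04%) were broad non-promoter domains, against 4.27% over the whole 10A table, and 80.7% of them were up. In DCIS chromosome 20 held 53 domains among 1264 regions (4.19%), with 30.2% up and 22.6% down. Chromosome 8 held 162 domains among 2735 regions in DCIS (5.92%), with a median log2 fold change of 0.38, and all DCIS regions of that chromosome had a median of 0.39. In 10A chromosome 8 held 113 among 2425 (4.66%), with a median of 0.89. Chromosome 19, rich in genes, had 1.88% of its 10A regions and 2.21% of its DCIS regions in broad domains.

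Long noncoding genes held several of the densest groups of domains, chosen here after their values were seen. PVT1 had 11 domains in 10A, 11 of them up, and 5 in DCIS, of which 1 was up. SCIRT had 7 in each line, 7 up in 10A and 6 up in DCIS, with DCIS values from 0.96 to 2.36. LINC-PINT had 7 in 10A with 5 up, and 9 in DCIS with 1 up, 1 down and a median of -0.57.

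The domains with the lowest FDR in DCIS, also chosen after their values were seen, all gained the mark. They lay 18203 bp from FASLG (2.92, FDR 1.65e-17), near ARAP3, in OPA3 (3.08, FDR 8.05e-17), in CPNE4 (2.55, FDR 5.56e-14) and 118200 bp from TP63 (3.21, FDR 5.89e-14). All 5 had 0% of their bases marked in DCIS shCTRL and 9.52% to 84.8% in 10A shCTRL.

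One count of motif matches rested on repeats. A single DCIS domain of 4500 bp held 397 matches of the TEAD element GGAATG, where the median domain held 2, and 6 DCIS domains held more than 20. In 10A the highest count in a domain was 11. The shares of domains with a match, used above, are not moved by such counts.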
